A study of Mus musculus with 11 samples.

Results

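Sites at which a ZIC2 peak overlapped a POU5F1 peak in mouse epiblast stem cells (EpiSCs) were taken from chromosomes 1 to 19 and X. A site was a ZIC2 peak that shared at least 1 bp with a POU5F1 peak and that no SOX2 or POU3F1 peak of the same cells touched. Of 121805 ZIC2 peaks, 2776 met this rule, which was 2.28% of all ZIC2 peaks. An OTX2 peak also overlapped 427 of them, and the other 2349 had none. The classes are called ZIC2/POU5F1/OTX2 sites and ZIC2/POU5F1 sites here, and together the shared sites. The presence of the ZIC2 and POU5F1 peaks, and the absence of SOX2 and POU3F1 peaks, chose the sites and are no finding. The sites were thus selected on the peak lists of 4 factors in EpiSC, and OTX2 was used only to divide them. A POU5F1 peak touched 3466 ZIC2 peaks in all, 2.85%, and 690 of these were left out for a SOX2 or POU3F1 peak.

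EpiSCs are lines derived from the post-implantation epiblast, the tissue from which all tissues of the embryo arise. The cells were of strain 129/Sv and grew without feeders in N2/B27 medium to which activin was added at 20 ng/ml and FGF2 at 10 ng/ml. In the EpiSCA cultures, activin had been withdrawn 18 h before the cells were collected. In each culture ZIC2, OTX2, SOX2, POU5F1 or POU3F1 was expressed transiently from a plasmid with a biotin acceptor tag, together with the BirA ligase, and the chromatin bound by the tagged protein was pulled down with streptavidin. Each factor thus had 1 library in EpiSC and 1 in EpiSCA, so a difference between the cultures cannot be told apart from a difference between 2 libraries, and no p value across samples could be had. The input DNA library of EpiSC served the submitters as the reference for peak calling and was not analysed here. The 5 EpiSC lists held 62457 to 122053 peaks and the 5 EpiSCA lists 87907 to 126908. Between the cultures the POU5F1 list grew from 62457 to 126908 peaks, while the ZIC2 list went from 122053 to 109305. Sequencing depth is not known, and the peak score of the lists, 10 times the negative log10 of the MACS p value, runs from 50 to at most 3100 to 3233, depending on the list. Intervals beside the shares are 95% Wilson intervals, and those beside differences are 95% Newcombe intervals. Both cover counting error over sites only.

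ZIC2 is a zinc finger transcription factor of the epiblast and the neural plate, where it takes part in forebrain development, and it binds G- and C-rich DNA. POU5F1, also named OCT4, is a POU domain factor required for pluripotency, and it reads an octamer of A- and T-rich DNA, often as a partner of SOX2. POU3F1 is a POU factor of the epiblast and of neural progenitors that reads a like octamer. OTX2 is a homeodomain factor of the epiblast and the anterior neural plate, which binds DNA containing GGATTA. Activin signals through SMAD2 and SMAD3 and keeps EpiSCs in their pluripotent state.

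The DNA under the centres of the ZIC2 and POU5F1 peaks of a shared site differed in kind, as is seen at the Trim29 site, chosen as the first with an alternating stretch among the 5 strongest ZIC2/POU5F1 sites. Windows of 200 bp around each midpoint are given 5′ to 3′ in mm9 coordinates, from the NCBIM37 genome. In the ZIC2 window, capitals mark an A or T with 3 bases of G or C on either side. In the POU5F1 window, capitals mark the longest run in which purines and pyrimidines alternate.
Trim29, ZIC2 midpoint, chr9:43273499-43273698, plus strand: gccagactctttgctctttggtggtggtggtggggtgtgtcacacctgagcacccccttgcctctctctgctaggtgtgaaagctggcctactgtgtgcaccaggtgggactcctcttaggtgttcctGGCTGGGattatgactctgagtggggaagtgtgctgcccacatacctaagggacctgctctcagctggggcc
Trim29, POU5F1 midpoint, chr9:43271935-43272134, plus strand: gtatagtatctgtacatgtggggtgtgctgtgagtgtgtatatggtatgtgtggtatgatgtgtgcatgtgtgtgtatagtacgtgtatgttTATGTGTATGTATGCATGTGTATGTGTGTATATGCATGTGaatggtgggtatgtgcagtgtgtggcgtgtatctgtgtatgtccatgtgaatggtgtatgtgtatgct

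The Trim29 site lay in intergenic DNA, 154.753 kb downstream of the start of Trim29, a TRIM family gene. Its POU5F1 window held a run of 40 alternating bases and had a GC content of 41.5%, against 58.5% in its ZIC2 window, 1564 bp away.

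Other sites had the octamer outside such runs. For contrast, the strongest site of each class is shown that held CCTGCTG in its ZIC2 window, ATGCAAAT in its POU5F1 window and no alternating run, a choice made after the values were seen. The first is a ZIC2/POU5F1 site 4.533 kb downstream of a start of Cabp1, a calcium-binding protein of neurons, and the second a ZIC2/POU5F1/OTX2 site 58.765 kb upstream of Thy1, a cell surface protein. Capitals mark CCTGCTG or its complement in the ZIC2 windows and the octamer, ATGCAAAT or ATGCATAT, or its complement in the POU5F1 windows.
Cabp1, ZIC2 midpoint, chr5:115626798-115626997, plus strand: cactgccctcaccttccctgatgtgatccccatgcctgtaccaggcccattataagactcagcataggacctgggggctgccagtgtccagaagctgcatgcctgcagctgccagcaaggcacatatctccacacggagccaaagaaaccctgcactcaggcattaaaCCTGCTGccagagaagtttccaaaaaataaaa
Cabp1, POU5F1 midpoint, chr5:115627787-115627986, plus strand: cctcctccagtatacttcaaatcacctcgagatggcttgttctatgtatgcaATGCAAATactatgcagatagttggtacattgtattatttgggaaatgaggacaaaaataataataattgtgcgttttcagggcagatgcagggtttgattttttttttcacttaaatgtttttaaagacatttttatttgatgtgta
Thy1, ZIC2 midpoint, chr9:43792602-43792801, plus strand: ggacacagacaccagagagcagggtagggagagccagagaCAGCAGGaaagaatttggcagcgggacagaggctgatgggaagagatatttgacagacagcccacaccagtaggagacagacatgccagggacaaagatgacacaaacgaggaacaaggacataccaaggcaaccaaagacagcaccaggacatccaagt
Thy1, POU5F1 midpoint, chr9:43791584-43791783, plus strand: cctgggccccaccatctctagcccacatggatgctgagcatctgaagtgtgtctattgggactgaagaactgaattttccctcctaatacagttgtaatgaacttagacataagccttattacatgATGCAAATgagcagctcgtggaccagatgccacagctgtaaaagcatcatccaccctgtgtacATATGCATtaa

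Most shared sites were pairs of peaks lying side by side. The midpoints of the ZIC2 and POU5F1 peaks were a median of 676 bp apart, with quartiles of 470 and 902 bp, where the ZIC2 peaks were a median of 920 bp and the POU5F1 peaks 956 bp wide. The overlap had a median of 301 bp, with quartiles of 151 and 470 bp. The midpoints were over 500 bp apart at 2001 of 2776 sites, 72.1% (70.4 to 73.7%), and within 100 bp at 94 sites, 3.39% (2.78 to 4.13%). Each midpoint lay inside the other peak at 420 sites, 15.1% (13.8 to 16.5%). These distances come from the peaks that chose the sites and are given as a description. On the same measure, the midpoints of ZIC2 and OTX2 peaks that overlapped without POU5F1, SOX2 or POU3F1 were a median of 498 bp apart, and those of POU5F1 and POU3F1 peaks that overlapped without ZIC2 177 bp. Peaks that coincide have a distance of 0% of the largest distance at which they still overlap, and peaks that only touch have 100%. This relative distance had a median of 70.1% at the shared sites, 49.5% for ZIC2 with OTX2 and 14.4% for POU5F1 with POU3F1. At the edge of the rule, the shortest overlaps were 1, 1 and 2 bp, and the nearest 3 ZIC2 peaks left out had 0 bases between them and a POU5F1 peak. Overlaps of at most 50 bp made up 230 of the sites, and 225 ZIC2 peaks without the other factors missed a POU5F1 peak by at most 50 bp.

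**Figure D1:**
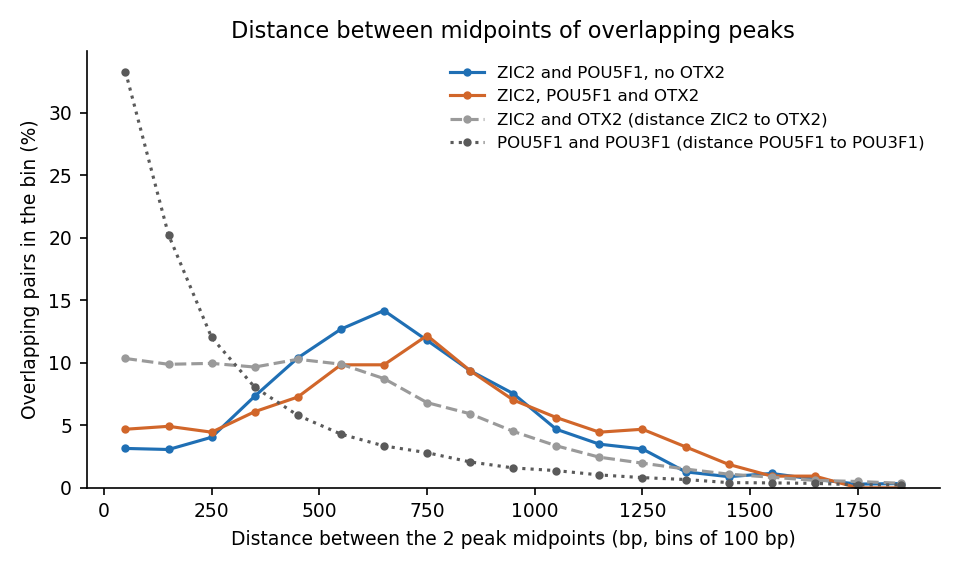
Share of overlapping peak pairs (y axis, %) by the distance between the 2 peak midpoints (x axis, bp, bins of 100 bp up to 1900 bp) for the 2 classes of shared sites (solid lines, distance ZIC2 to POU5F1), ZIC2 with OTX2 peaks (dashed) and POU5F1 with POU3F1 peaks (dotted). The shared sites had few pairs within 100 bp (3.15% without and 4.68% with OTX2), which was the fullest bin of POU5F1 with POU3F1 (33.3%).

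A POU5F1 peak could also lie between 2 ZIC2 peaks. The 2776 sites held 2588 distinct POU5F1 peaks, of which 188 were shared by 2 sites, and at 187 of those the POU5F1 midpoint lay between the ZIC2 midpoints. Hence 376 of the sites were not independent of another site, and 603 had another shared site within 10 kb. A POU3F1 peak touched the POU5F1 peak, though not the ZIC2 peak, at 125 sites, 4.50% (3.79 to 5.34%), and a SOX2 peak did so at 39, 1.4% (1.03 to 1.91%). The rule looked for these peaks at the ZIC2 peak only.

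The 2 ends of a site differed in base composition. The 200 bp at the ZIC2 midpoint had a median GC content of 54.5% and those at the POU5F1 midpoint 40%. The ZIC2 end was richer in GC at 2595 of 2776 sites, 93.5% (92.5 to 94.3%). In single peaks the same difference was seen, with medians of 55% at ZIC2 peaks and 37% at POU5F1 peaks that had none of the other factors. Along the line from the ZIC2 midpoint to the POU5F1 peak, GC content declined from its highest value at the ZIC2 midpoint, CCTGCTG was densest at the ZIC2 midpoint, and both octamers and alternating runs were densest between about 500 and 1000 bp on the POU5F1 side.

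**Figure D2:**
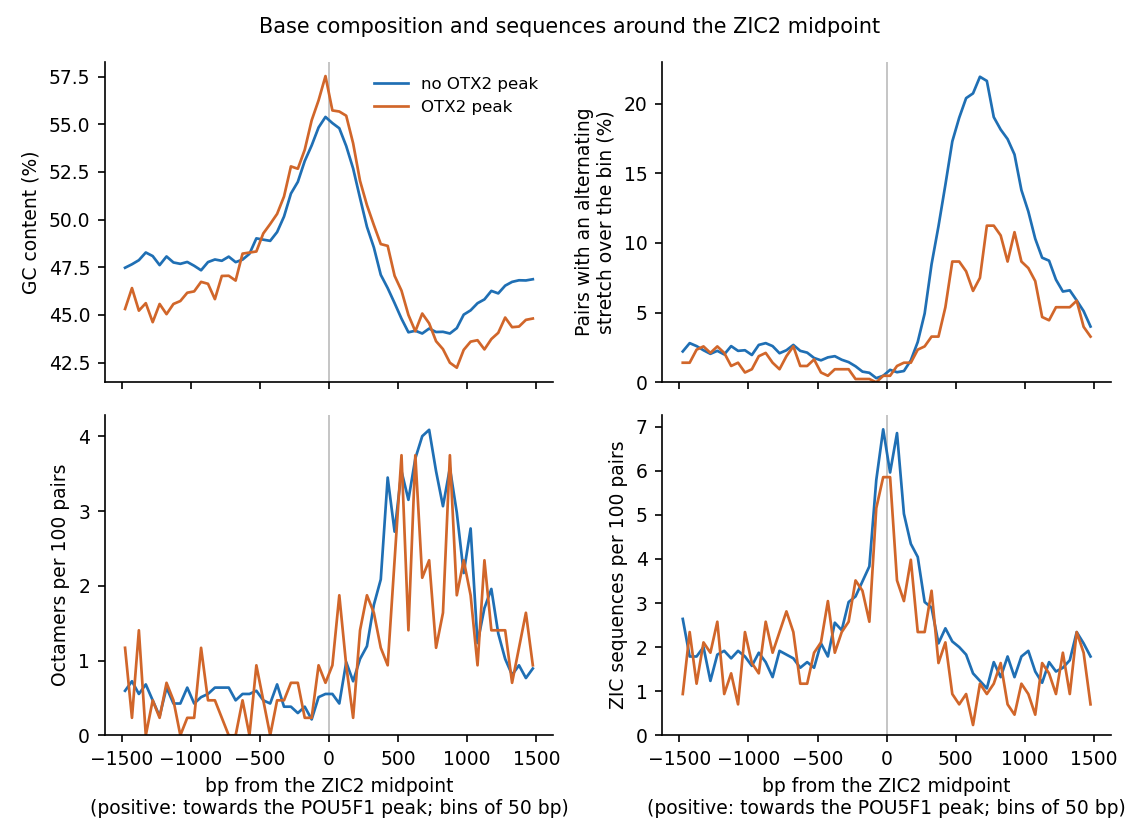
GC content (%), share of sites with an alternating purine-pyrimidine run over the bin (%), octamers per 100 sites and CCTGCTG (ZIC sequence) per 100 sites (y axes) by distance from the ZIC2 midpoint (x axis, bp, bins of 50 bp, positive towards the POU5F1 peak), for sites without (blue) and with (orange) an OTX2 peak. The ZIC sequence peaked at 0 bp, and alternating runs and octamers were densest on the POU5F1 side.

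At the POU5F1 midpoint, the commonest of the sequences searched without mismatch was an unbroken alternation of purines and pyrimidines over 20 bp or more. This is called a run here and is the pattern of TG and TA repeats. It was present in the 200 bp window of 1562 of 2776 shared sites, 56.3% (54.4 to 58.1%), where 29.6% of all POU5F1 peaks held one. Windows 1000 bp to either side held one in 4.09% (3.60 to 4.64%). The run was a pure repeat of 1 unit of 2 bases at only 9 of the 1562 sites, 0.576% (0.303 to 1.09%). Where 2 sites shared a POU5F1 peak, its run was counted at each. Of the base steps in the runs, read on either strand, CA or TG made up 34.5%, AC or GT 27.6%, AT 17.7%, TA 14.3%, GC 4.78% and CG 1.25%. At the ZIC2 midpoint 1.19% of sites held a run (0.848 to 1.66%), against 0.682% of all ZIC2 peaks.

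The 2 classes differed in this. A run was found at 1419 of 2349 ZIC2/POU5F1 sites, 60.4% (58.4 to 62.4%), and at 143 of 427 ZIC2/POU5F1/OTX2 sites, 33.5% (29.2 to 38.1%). The sites with OTX2 were thus 26.9 percentage points lower, with an interval of -31.7 to -21.9, and were lower on 20 of 20 chromosomes. Of these, chromosome X held only 1 site with OTX2. The difference was of like size within each stratum of GC content, from -30.8 to -19.8 points, and of POU5F1 score, from -33.9 to -19.1 points. Among POU5F1 peaks with none of the other factors 47.7% held a run, 12.7 points fewer than ZIC2/POU5F1 sites (10.6 to 14.8 points), with ZIC2/POU5F1 sites higher on 18 of 20 chromosomes. That difference was not seen in windows of 45% GC or more, at -1.90 points (-6.38 to 2.55), and it did not hold for pairs that lay close: it was -0.732 points for midpoints within 500 bp (-4.57 to 3.14) and -13.8 points for a reciprocal overlap of 50%. POU5F1 peaks with OTX2 but no ZIC2 held a run at 36.8%, and ZIC2/POU5F1/OTX2 sites differed from them by -3.32 points, an interval of -8.17 to 1.76 that includes 0.

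In ZIC2/POU5F1 sites the run had a median length of 37 bp and lay a median of 689 bp from the ZIC2 midpoint. It was searched for at the POU5F1 midpoint only, so its distance from the ZIC2 midpoint follows that of the peaks that chose the sites. Its centre was inside the ZIC2 peak at 202 of 1419 sites, 14.2% (12.5 to 16.2%). POU5F1 peaks with a run had a median score of 240, compared with 118 for those with an octamer and no run and 124 for those with neither. These scores were among the values that chose the sites.

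The octamer, ATGCAAAT or ATGCATAT on either strand, was present at the POU5F1 midpoint of 692 shared sites, 24.9% (23.4 to 26.6%), beside 18.5% of all POU5F1 peaks and 1.80% (1.48 to 2.19%) of windows 1000 bp away. In ZIC2/POU5F1 sites it was found at 25.1%, which was 3.70 points above POU5F1 peaks alone (1.92 to 5.57 points). The interval included 0 in windows of 45% GC or more, at 1.49 points (-1.76 to 5.09), and for a reciprocal overlap of 50%, at 1.34 points (-3.10 to 6.48). The form ATGCATAT, which itself alternates, was the commoner, at 19.3% of shared sites (17.8 to 20.8%) against 12.8% of all POU5F1 peaks. The form ATGCAAAT, which breaks the alternation, was at 6.84% (5.96 to 7.84%) against 6.44% of all POU5F1 peaks. ZIC2/POU5F1 sites were above POU5F1 peaks alone by 2.98 points for ATGCATAT (1.35 to 4.70) and 0.997 points for ATGCAAAT (0.026 to 2.10). ZIC2/POU5F1/OTX2 sites were above POU5F1 peaks with OTX2 but no ZIC2 by 3.87 points for ATGCATAT (0.269 to 7.96). For ATGCAAAT the difference was 3.03 points (0.414 to 6.26), and for either form 5.66 points (1.43 to 10.3). An octamer and a run occurred together at 456 sites, an octamer without a run at 236, and neither at 978, 35.2% (33.5 to 37.0%). Neither was found at 52.5% of ZIC2/POU5F1/OTX2 sites (47.7 to 57.2%) and 32.1% of ZIC2/POU5F1 sites (30.2 to 34.0%), a difference of 20.4 points (15.3 to 25.4). All these counts are of the exact octamer. With 1 mismatch allowed, an octamer was at 84.3% of shared sites (82.9 to 85.6%), more than held a run.

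At the ZIC2 midpoint, no difference in CCTGCTG from other ZIC2 peaks was detected. CCTGCTG on either strand, the form of the ZIC sequence searched, was present at 542 of 2776 sites, 19.5% (18.1 to 21%), beside 19% of all ZIC2 peaks and 5.96% (5.37 to 6.62%) of windows 1000 bp away. ZIC2/POU5F1 sites differed from ZIC2 peaks alone by 0.541 points (-1.04 to 2.22), and ZIC2/POU5F1/OTX2 sites from ZIC2 peaks with OTX2 by 0.887 points (-2.48 to 4.82). An A or T with 3 bases of G or C on either side was present at 82.9% of sites (81.4 to 84.2%) and 84.4% of all ZIC2 peaks. GGATTA, the OTX2 sequence, was present at 6.32% of ZIC2/POU5F1/OTX2 sites (4.38 to 9.04%) and 3.41% of ZIC2/POU5F1 sites (2.74 to 4.22%), a difference of 2.92 points (0.813 to 5.72), beside 3.96% of all ZIC2 peaks. ZIC2 peaks without POU5F1 had a like gap, at 6.24% with OTX2 and 3.54% alone. ZIC2/POU5F1/OTX2 sites differed from the former by 0.0881 points, with an interval of -1.89 to 2.83 that includes 0. ACAAAG, the sequence read by SOX2, was at 10.3% of the POU5F1 midpoints of ZIC2/POU5F1 sites (9.18 to 11.6%), a difference of -3.02 points from POU5F1 peaks alone (-4.27 to -1.66), where 15.4% of all POU5F1 peaks held it.

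Each factor's sequence was also found, at low levels, in the window at the other factor's midpoint. The 2 windows of a site overlap where the midpoints are less than 200 bp apart, so the counts were repeated without those sites, a choice made after the values were seen. CCTGCTG was at the POU5F1 midpoint of 3.66% of ZIC2/POU5F1 sites (2.97 to 4.50%) and 1.92% of POU5F1 peaks alone, beside 1.93% of all POU5F1 peaks, a difference of 1.74 points (1.03 to 2.59), which was 0.891 points (0.252 to 1.69) for windows that do not overlap. These POU5F1 windows had a median GC content of 40% at ZIC2/POU5F1 sites and 37% at POU5F1 peaks alone, and its part in this difference was not tested. The octamer was at the ZIC2 midpoint of 1.75% of ZIC2/POU5F1 sites (1.29 to 2.36%) and 0.867% of ZIC2 peaks alone, beside 1.05% of all ZIC2 peaks, a difference of 0.879 points (0.418 to 1.49). For windows that do not overlap it was 0.359 points, with an interval of -0.0278 to 0.913 that includes 0. With OTX2 the octamer was at the ZIC2 midpoint of 3.98% of sites (2.50 to 6.28%), a difference of 2.50 points (1.01 to 4.81) from ZIC2 peaks with OTX2 only, and 1.37 points (0.101 to 3.56) for windows that do not overlap. GGATTA was at the POU5F1 midpoint of 8.43% of ZIC2/POU5F1/OTX2 sites (6.15 to 11.5%) and 4.09% of ZIC2/POU5F1 sites (3.36 to 4.97%), a difference of 4.34 points (1.90 to 7.45), and POU5F1 peaks with OTX2 but no ZIC2 had 8.40%, beside 6.82% of all POU5F1 peaks.

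**Figure D3:**
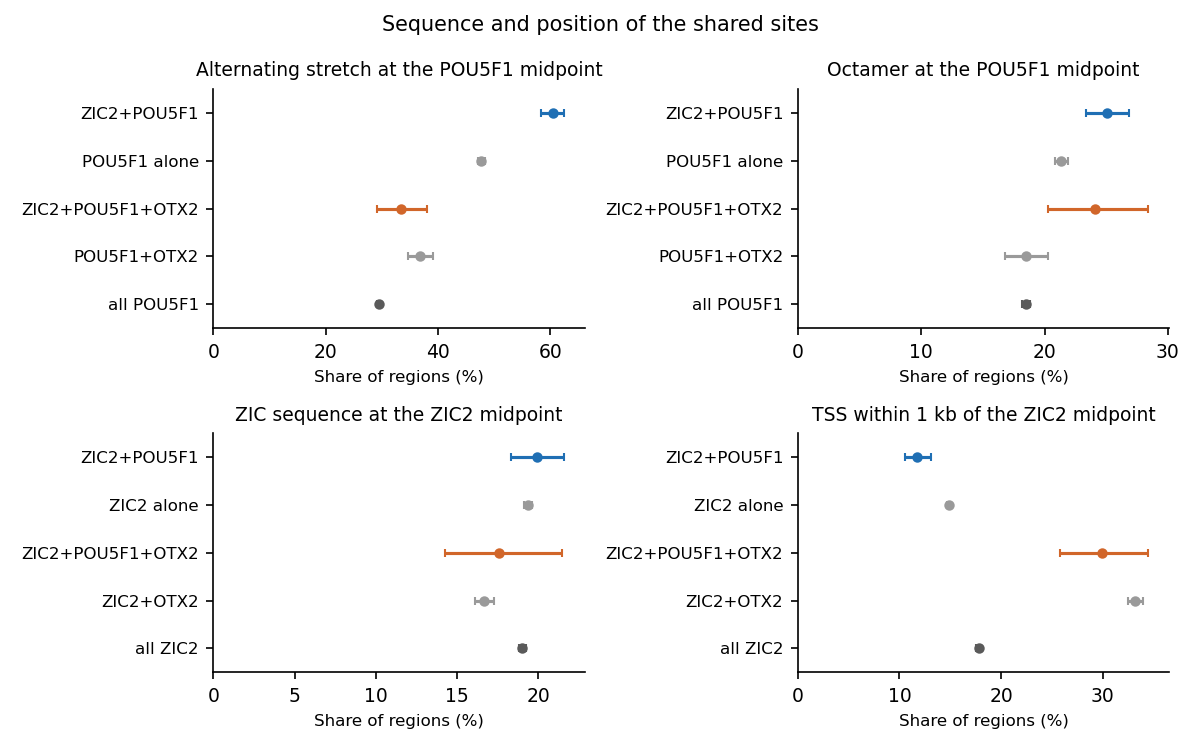
Share of regions (x axis, %) with an alternating run or an octamer at the POU5F1 midpoint, CCTGCTG (ZIC sequence) at the ZIC2 midpoint, or a transcription start site (TSS) within 1 kb. Blue marks the shared sites without OTX2 and orange those with OTX2. Light grey marks peaks of ZIC2 without POU5F1 or of POU5F1 without ZIC2, alone or with OTX2. Dark grey marks all peaks of the factor. Points are shares and bars 95% Wilson intervals, and the alternating run stands out at 60.4% of ZIC2/POU5F1 sites and 33.5% of ZIC2/POU5F1/OTX2 sites.

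OTX2 peaks were counted at the shared sites without having been used to choose them. They were present at 15.4% (14.1 to 16.8%), beside 14.8% of all ZIC2 peaks. ZIC2 peaks without POU5F1, SOX2 and POU3F1 had 13.9%, a difference of 1.47 points (0.156 to 2.87) with the shared sites higher on 12 of 20 chromosomes. The median ZIC2 score was 214 at the shared sites, 157 at ZIC2 peaks alone and 275 at ZIC2 peaks with OTX2 only. The OTX2 share was not compared within strata of that score. POU5F1 peaks without ZIC2, SOX2 and POU3F1 had 7.09%, a difference of 8.29 points (6.96 to 9.71) with the shared sites higher on 20 of 20. That 7.09% was counted at the POU5F1 peak and the 15.4% at the ZIC2 peak. Counted at the POU5F1 peak, 399 of the shared sites had an OTX2 peak, 14.4% (13.1 to 15.7%). The OTX2 midpoint was nearer to the ZIC2 than to the POU5F1 midpoint at 292 of 427 sites, 68.4% (63.8 to 72.6%). The ZIC2 midpoint lay between the other two at 48.2% (43.5 to 53.0%), the OTX2 midpoint at 36.3% (31.9 to 41.0%) and the POU5F1 midpoint at 15.5% (12.3 to 19.2%). The rule required the OTX2 peak to touch the ZIC2 peak, which favours the first order. It touched the POU5F1 peak too at 311 of the 427, 72.8% (68.4 to 76.8%).

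After the withdrawal of activin, most sites were found again. All 3 conditions of the rule were met by an EpiSCA ZIC2 peak at 1726 of 2776 sites, 62.2% (60.4 to 64.0%), beside 2.48% of all ZIC2 peaks. Both peaks overlapped each other with SOX2 or POU3F1 added at 181 and were listed apart at 197. POU5F1 was listed without ZIC2 at 370, ZIC2 without POU5F1 at 248 and neither at 54. This breakdown does not count POU5F1 by its own peak, which was listed again at 2630 sites, 94.7% (93.8 to 95.5%). Some sites counted here as without POU5F1 thus had that peak listed again. An EpiSCA POU5F1 peak lay on the ZIC2 peak at 2451 sites, 88.3% (87.0 to 89.4%). In the EpiSCA lists 3303 ZIC2 peaks met the same rule, of which 1726 overlapped a site of EpiSC.

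The ZIC2 peak was listed again at 83.7% of ZIC2/POU5F1 sites (82.1 to 85.1%), beside 78.9% of all ZIC2 peaks and 77.4% of ZIC2 peaks alone, a difference of 6.24 points from the latter (4.66 to 7.70). It was 90.6% at ZIC2/POU5F1/OTX2 sites (87.5 to 93.0%), and 85.4% at ZIC2 peaks with OTX2 only. The shared sites had higher ZIC2 scores, with medians of 200 and 157 for ZIC2/POU5F1 sites and ZIC2 peaks alone. Within strata of score the difference was 6.15 points below 100 (2.18 to 10.1), 3.91 points from 100 to 200 (0.777 to 6.56) and 0.0146 points from 200 to 500 (-1.19 to 0.647), and both were 100% above 500. The interval of the difference included 0 for midpoints within 500 bp, at -0.517 points (-3.90 to 2.55), and with the 50000 highest-scoring peaks of every list, at 1.52 points (-0.608 to 3.39). ZIC2/POU5F1/OTX2 sites differed from ZIC2 peaks with OTX2 only by 12.6 points for scores below 100 (1.19 to 23.1). They differed by 1.88 points from 100 to 200 (-8.62 to 8.40) and 0.121 points from 200 to 500 (-3.57 to 0.882). Above 500 both were 100%.

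The POU5F1 peak was listed again at 95.5% of ZIC2/POU5F1 sites (94.6 to 96.3%) and 90.4% of ZIC2/POU5F1/OTX2 sites (87.2 to 92.8%), beside 98.3% of all POU5F1 peaks, in a list that had grown. ZIC2/POU5F1 sites were 2.17 points below POU5F1 peaks alone (-3.10 to -1.38) and lower on 17 of 20 chromosomes. With the 50000 highest-scoring peaks of every list the difference was -1.60 points, and its interval of -4.21 to 0.827 included 0. The shortfall was in weak peaks, at -8.18 points for scores under 100 (-10.9 to -5.84) and -1.21 points from 100 to 200 (-2.63 to -0.466). Sites with an alternating run kept the POU5F1 peak at 98.7% (98.0 to 99.2%), those with an octamer and no run at 83.9% (78.7 to 88.0%) and those with neither at 91.0% (89.0 to 92.6%). An overlapping pair was again listed at 69.4% of sites with a run (67.1 to 71.6%), 52.1% with an octamer alone (45.8 to 58.4%) and 69.0% with neither (66.1 to 71.8%). The POU5F1 scores of these groups differed, as given above, and their part in this was not tested.

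SOX2 or POU3F1, absent from every ZIC2 peak of the shared sites in EpiSC, was listed in EpiSCA at 8.05% of ZIC2/POU5F1 sites (7.01 to 9.22%) and 19.7% of ZIC2/POU5F1/OTX2 sites (16.2 to 23.7%), beside 6% of all ZIC2 peaks, which include those that had such a peak before. ZIC2 peaks that likewise had none in EpiSC were at 2.36% without and 7.09% with OTX2. The differences were 5.68 points (4.64 to 6.86), with the shared sites higher on 20 of 20 chromosomes, and 12.6 points (9.07 to 16.6), on 19 of 20. The first was 4.50 points when no SOX2 or POU3F1 peak was allowed within 500 bp of the ZIC2 peak. Both held in every stratum of ZIC2 score, between 4.73 and 6.22 points without and 8.48 and 18.7 points with OTX2. The larger difference was in POU3F1, listed at 5.49% of ZIC2/POU5F1 sites (4.64 to 6.49%) and 0.503% of ZIC2 peaks alone, and at 12.9% (10.0 to 16.4%) and 1.22% with OTX2, beside 1.80% of all ZIC2 peaks. SOX2 was listed at 3.36% (2.71 to 4.17%) and 1.94%, and with OTX2 at 11.2% (8.58 to 14.6%) and 6.25%, beside 4.62% of all ZIC2 peaks.

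Counted at the POU5F1 peak instead, the differences in POU3F1 were smaller. An EpiSCA POU3F1 peak lay there at 7.83% of ZIC2/POU5F1 sites (6.81 to 8.99%) and 6.57% of POU5F1 peaks alone, beside 50.6% of all POU5F1 peaks, which include those that had one in EpiSC. The difference was 1.26 points (0.194 to 2.46). Unlike POU5F1 peaks alone, some sites had a POU3F1 peak on the POU5F1 peak already in EpiSC, and without those the share was 4.36% (3.59 to 5.28%) and the difference turned to -2.21 points (-3.04 to -1.24). With OTX2 the shares were 16.2% (13.0 to 19.9%) and 7.64% of POU5F1 peaks with OTX2, a difference of 8.52 points (5.08 to 12.5), which was 4.52 points (1.4 to 8.24) without such sites.

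An EpiSCA OTX2 peak lay on the ZIC2 peak at 75.4% of ZIC2/POU5F1/OTX2 sites (71.1 to 79.3%), beside 12.7% of all ZIC2 peaks. This was 6.82 points more than at ZIC2 peaks with OTX2 only (2.46 to 10.7). Any OTX2 peak on the ZIC2 peak was counted, whether or not it overlapped the one of EpiSC. Within strata of ZIC2 score the difference was 3.47 to 10.4 points, and 2 of the 4 intervals included 0. On the POU5F1 peak, an EpiSCA OTX2 peak lay at 56.4% of these sites (51.7 to 61.1%) and 80.1% of POU5F1 peaks with OTX2, a difference of -23.6 points (-28.7 to -18.7). At the 311 sites whose OTX2 peak touched the POU5F1 peak in EpiSC it was 72.7% (67.5 to 77.3%), a difference of -7.42 points (-12.9 to -2.40). These subsets were formed after the values were seen.

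An EpiSCA OTX2 peak lay on the POU5F1 peak at 5.11% of ZIC2/POU5F1 sites (4.29 to 6.07%) and 3.51% of POU5F1 peaks alone, beside 11.6% of all POU5F1 peaks, a difference of 1.60 points (0.750 to 2.59). An OTX2 peak of EpiSC already touched the POU5F1 peak, though not the ZIC2 peak, at 3.75% of ZIC2/POU5F1 sites (3.05 to 4.59%), and its part in this difference was not tested.

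**Figure D4:**
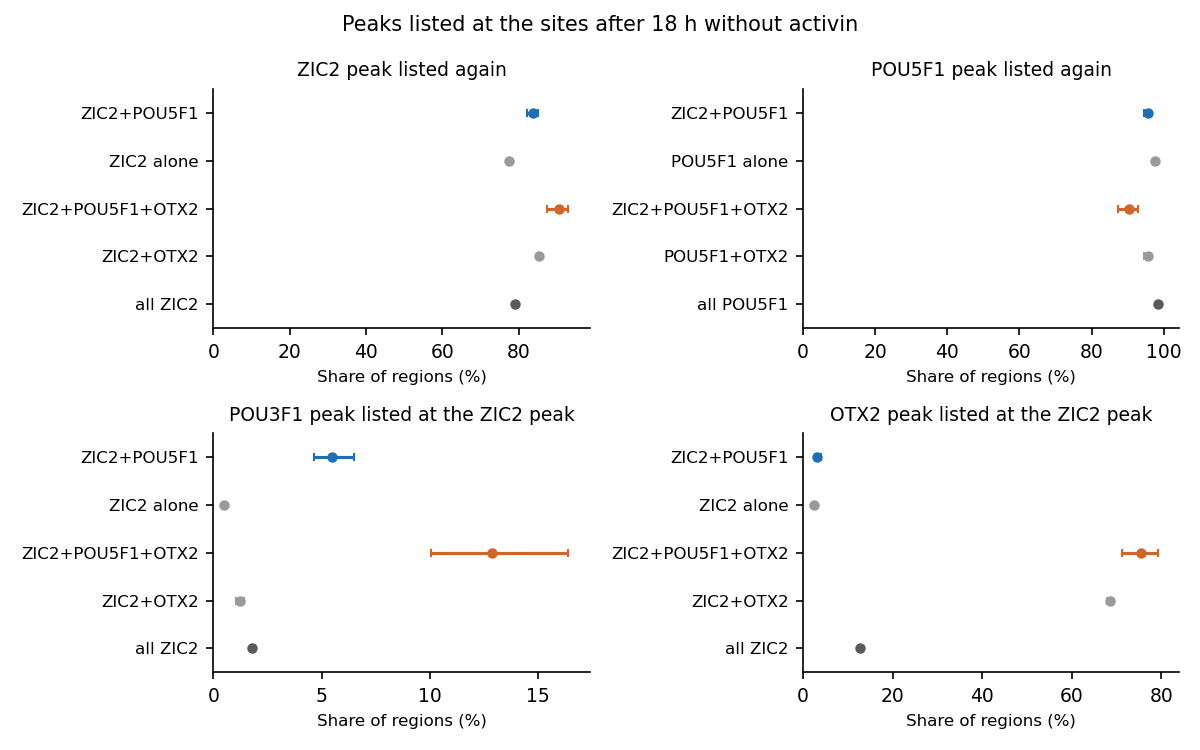
Share of regions (x axis, %) at which a ZIC2, POU5F1, POU3F1 or OTX2 peak was listed after 18 h without activin. Blue marks the shared sites without OTX2 and orange those with OTX2. Light grey marks peaks of ZIC2 without POU5F1 or of POU5F1 without ZIC2, alone or with OTX2. Dark grey marks all peaks of the factor. Points are shares and bars 95% Wilson intervals from 1 library per factor and culture, and POU3F1 was listed at 5.49% and 12.9% of the shared sites against 0.503% and 1.22% of the ZIC2 peaks they were compared with, all counted at the ZIC2 peak.

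Sites whose midpoints nearly coincided differed from the rest. This split was made after the values had been seen, and the distance itself comes from the peaks of the rule. At the 252 sites with midpoints less than 250 bp apart, 19% had an alternating run (14.7 to 24.3%), compared with 56.1% (51.8 to 60.3%) from 250 to 500 bp, 62.5% (60 to 64.9%) from 500 to 1000 bp and 56.4% (52.0 to 60.7%) beyond. The octamer ATGCAAAT went the other way, at 14.3% of the 252 (10.5 to 19.1%) and 5.36% (3.74 to 7.64%), 6.68% (5.53 to 8.06%) and 5.09% (3.47 to 7.41%) of the rest in the same order. The near sites kept the POU5F1 peak less often, at 77.8% (72.2 to 82.5%), where the wider groups were at 95.4 to 98.0%. A SOX2 or POU3F1 peak was listed in EpiSCA at 27.4% of them (22.2 to 33.2%), where the wider groups were at 7.66 to 8.27%. For ZIC2/POU5F1 sites it was 21.7% (16.5 to 28.0%) against 4.65 to 7.28%. For ZIC2/POU5F1/OTX2 sites it was 48.1% (35.4 to 61.1%) of 54 near sites against 11.1 to 20.2%. These peaks were counted at the ZIC2 peak only, and the part of this in the contrast was not tested. A TSS lay within 1 kb at 5.56% of the near sites (3.34 to 9.11%), and at 29.3% (25.5 to 33.5%) of the sites 1000 bp or more apart. Peaks that overlap with midpoints so far apart have to be wide. Peak width and score were not held fixed between the groups of distance, and their part in these contrasts was not tested.

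**Figure D5:**
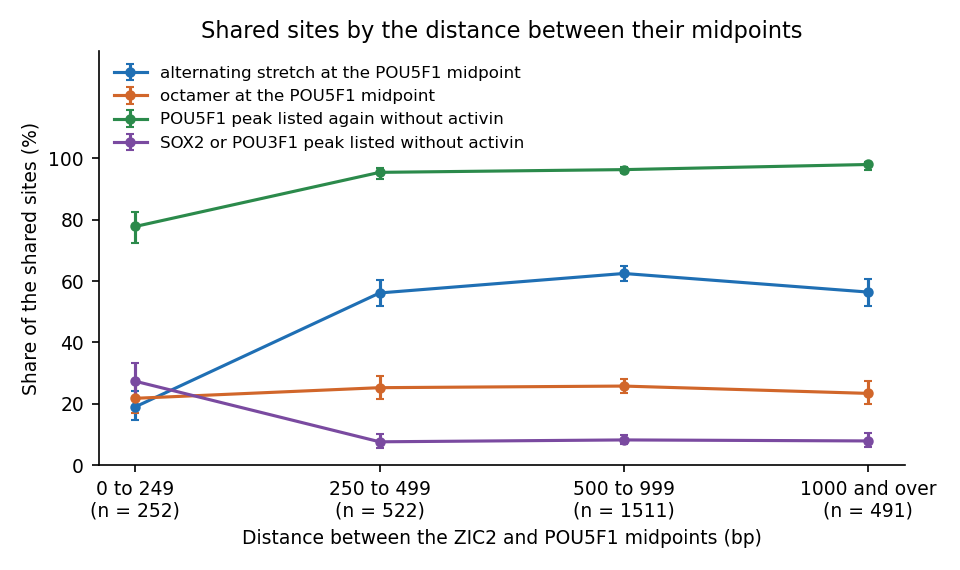
Share of the shared sites (y axis, %) with an alternating run or an octamer at the POU5F1 midpoint, with the POU5F1 peak listed again, or with a SOX2 or POU3F1 peak listed without activin, by the distance between the ZIC2 and POU5F1 midpoints (x axis, bp, 4 groups). Points are shares and bars 95% Wilson intervals, and the 252 sites under 250 bp stand apart in all but the octamer.

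ZIC2/POU5F1 sites lay nearer to genes than POU5F1 peaks alone and farther from them than ZIC2 peaks alone. The median distance to a TSS was 14.7 kb from the ZIC2 midpoint of ZIC2/POU5F1 sites, 10.6 kb for ZIC2 peaks alone, 14.6 kb from the POU5F1 midpoint of the sites and 29.0 kb for POU5F1 peaks alone. A TSS lay within 50 kb of the ZIC2 midpoint at 79.5% of ZIC2/POU5F1 sites (77.8 to 81.1%) and 86.9% of ZIC2/POU5F1/OTX2 sites (83.4 to 89.8%), beside 84.6% of all ZIC2 peaks. Taken from the POU5F1 midpoint, ZIC2/POU5F1 sites were at 79.4% (77.8 to 81.0%), 15.7 points above POU5F1 peaks alone (13.9 to 17.4), beside 57.5% of all POU5F1 peaks. Within 1 kb, ZIC2/POU5F1 sites were at 11.7% (10.5 to 13.1%), 3.11 points below ZIC2 peaks alone (-4.37 to -1.73), and ZIC2/POU5F1/OTX2 sites at 30% (25.8 to 34.5%), beside 17.8% of all ZIC2 peaks. The classes differed by 18.2 points (13.9 to 22.9), higher with OTX2 on 19 of 20 chromosomes. ZIC2 peaks without POU5F1 had a like gap, at 33.2% with OTX2 and 14.9% alone, and ZIC2/POU5F1/OTX2 sites differed from the former by -3.22 points, with an interval of -7.44 to 1.35 that includes 0. The POU5F1 midpoint lay within 1 kb of a TSS at 8.90% of ZIC2/POU5F1 sites (7.81 to 10.1%), 6.66 points above POU5F1 peaks alone (5.56 to 7.89), beside 2.52% of all POU5F1 peaks. The ZIC2 midpoint was in an intron at 45.7% of shared sites (43.8 to 47.5%), intergenic at 43.2% (41.4 to 45.1%), in a coding exon at 4.65% (3.92 to 5.49%) and in another exon at 6.45% (5.59 to 7.42%). The POU5F1 midpoint was in a coding exon at 5 sites and in another exon at 57.

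The shared sites were spread over all 20 chromosomes, from 21 on X, 1.01% of its ZIC2 peaks, to 279 on chromosome 5, 3.13%. They fell in 1131 segments of 1 Mb. The densest was 123 to 124 Mb of chromosome 8, with 22 sites, followed by 27 to 28 Mb of chromosome 17 and 118 to 119 Mb of chromosome 5, with 16 each. The GC content of the segment around a site had a median of 46.0% over ZIC2/POU5F1 sites, close to the 45.7% over ZIC2 peaks alone. Over POU5F1 peaks alone it was 42.4%. A segment counted here once for each site or peak that it held.

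Of 22202 protein-coding genes, 3131 had a shared site within 50 kb of a start, which is 14.1%. Of 123 genes in lists of pluripotency, signalling and early lineage genes, 28 had one, 22.8% (16.2 to 30.9%). Genes of pluripotency shared by naive and primed cells had 7 of 15, the largest share with Pou5f1 counted. The nearest site of Pou5f1 lay over its own exons, where binding and plasmid DNA cannot be told apart, as given below. Beside both Pou5f1 and Sox2, the 7 included Mycn, a MYC family factor, and Lin28a and L1td1, both RNA-binding proteins of pluripotent cells. With them were Utf1, a chromatin factor, and Tcf7l1, a repressor of Wnt target genes. Of the neural plate genes 8 of 20 had one, namely Sox2, Sox3, Lhx2, Lhx5, Hes3, En2, Irx3 and Nkx6-2, all transcription factors. The naive list had 2 of 11, Esrrb and Dppa3, the epiblast list 3 of 14, Pou3f1, Foxd3 and Sox3, and the list of primitive streak and endoderm 3 of 14, T, Gsc and Foxa2. The Nodal and activin list had 3 of 18, the signal transducer Smad3, the inhibitor Lefty1 and Skil, a repressor of SMADs. The Wnt list had 4 of 21, the ligand Wnt3a, beta-catenin (Ctnnb1), Tcf7l1 and the secreted inhibitor Sfrp1, and the FGF list 1 of 16, Spred2, an inhibitor of ERK signalling. With so few genes a list, the 95% intervals were wide, 24.8 to 69.9% for shared pluripotency and 21.9 to 61.3% for the neural plate.

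The strongest sites were ranked by the lower of their 2 scores. Without OTX2 the first was 0.12 kb upstream of Fbxo41, an F-box protein, with a ZIC2 score of 1870 and a POU5F1 score of 1950, midpoints 1859 bp apart and neither octamer nor run. It was followed by sites in an intron of A530016L24Rik, at Trim29, at Kank2, where the ZIC2 midpoint lay in a coding exon and the POU5F1 midpoint in an intron with a run, and 9.865 kb upstream of Fgr, a SRC family kinase. With OTX2 the first was near Rps6ka1, a ribosomal S6 kinase, with a ZIC2 score of 3100 and a POU5F1 score of 2976. It was followed by sites in Megf6, near Papola, a poly(A) polymerase, a second one near Trim29, 143.658 kb from its start, and one near B230307C23Rik. All 10 had both peaks listed again in EpiSCA, and the peaks overlapped again at 8, the exceptions being both Trim29 sites.

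Near genes of the lists, 16 sites lay within 10 kb of a start. The strongest was at Foxd3, a factor of the epiblast and neural crest, with a ZIC2 peak over its coding exon, 0.663 kb from the start, with a score of 2299, and a POU5F1 peak of score 607 with an octamer, 1824 bp away. The site at Mycn had a ZIC2 score of 3204 and a POU5F1 score of 129, with the whole POU5F1 peak of 990 bp inside the ZIC2 peak. The sites at Smad3, 1.435 kb upstream, and Skil, 7.176 kb upstream, had POU5F1 scores of 161 and 266 and were listed as overlapping pairs in EpiSCA too. At Sox3, 5.148 kb downstream, the midpoints were 139 bp apart, and the POU5F1 peak, of score 136, was not listed in EpiSCA. At L1td1 the midpoints were 71 bp apart, and SOX2 or POU3F1 was listed in EpiSCA. At Irx3, 2 ZIC2 peaks, of scores 1331 and 106, flanked 1 POU5F1 peak of score 132. The site at Sfrp1, 9.306 kb upstream, had a run at the POU5F1 midpoint.

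Of these 16 sites, 2 with OTX2 lay over exons of Pou5f1 itself, each with a POU5F1 score of 3100 and ZIC2 scores of 349 and 69.1. The tagged POU5F1 was expressed from a plasmid that carries its coding sequence, and reads of that plasmid would map to these exons, so that binding and plasmid DNA cannot be told apart there. They were left out of the ranking of strong sites and kept in all counts.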

How the data were processed

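Genomic binding of 5 biotin-tagged transcription factors was measured by ChIP-seq in EpiSC and EpiSCA cultures, 1 library each. Bowtie2 alignment to mm9 and peak calling with MACS 1.4 against input DNA were done by the authors. The deposited score is 10 times the negative log10 of the p value, at least 50. Peak lists held no overlapping peaks, and no depth is given, so the number of peaks limits the precision. The gene lists and the rule that chose the sites were set with earlier results of these data known.

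Overlap was at least 1 bp. The POU5F1 partner of a ZIC2 peak was the one with the longest overlap. Sequences were searched on both strands of 200 bp at each midpoint, in the NCBIM37 genome, and TSSs came from GENCODE vM1, with 86803 distinct positions. Shares carry 95% Wilson and differences 95% Newcombe intervals, without adjustment over the 89 differences computed, of which 66 had an interval without 0. They treat sites as independent. The numbers of chromosomes on either side are descriptions, and chromosome X counts with 1 ZIC2/POU5F1/OTX2 site. Counting was tested on simulated data. Named sites were the 5 of each class with the highest lower score, those near list genes (at most 12 within 10 kb), those over exons of the factor genes, and those at the edge of the rule. Python 3.11.15, numpy 2.4.6, scipy 1.17.1 and matplotlib 3.10.9 were used. The sequence windows of some sites are not reported here.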

Additional observations from a re-analysis of the deposited data

How the results depend on the processing

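Each share was recomputed for all shared sites under other settings, and 8 differences between sets were added after the values were seen. Of 179 values, 115 kept their direction and call or stayed within the interval or within 1.5 times the count. With scores of at least 100 in every list there were 1341 sites without and 160 with OTX2 (10.7% with OTX2). ZIC2 was listed again at 87.4%, POU5F1 at 97.3% and the pair at 73.2%, SOX2 or POU3F1 was listed at 8.06% and OTX2 at 10.5%, a run was at 60.5% and a TSS within 1 kb at 16.4%. With the 50000 highest-scoring peaks of every list the counts were 1070 and 165 (13.4% with OTX2), the shares listed again 88.9%, 76.3% and 58.5%, SOX2 or POU3F1 7.04%, OTX2 11.4%, a TSS within 1 kb 22.3% and within 50 kb 83.6%. The differences from single peaks in ZIC2 and in POU5F1 listed again were then 1.52 and -1.60 points, with intervals that include 0.

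With a reciprocal overlap of 50% the counts were 295 and 71 (19.4% with OTX2), ZIC2 and POU5F1 were each listed again at 86.3% and the pair at 74.0%, SOX2 or POU3F1 at 19.7% and OTX2 at 20.2%. A run was at 31.4%, the octamer at 21.9%, CCTGCTG at 25.4%, GGATTA at 3.01%, and a TSS within 1 kb at 6.83% and within 50 kb at 76.5%. The difference of ZIC2/POU5F1 sites from POU5F1 peaks alone was -13.8 points for the run, which is reversed, and 1.34 points for the octamer, with an interval that includes 0. With midpoints within 500 bp the counts were 658 and 119, ZIC2 was listed again at 78.5%, POU5F1 at 89.6% and SOX2 or POU3F1 at 14.0%, a run was at 44.0%, CCTGCTG at 22.9%, and a TSS within 1 kb at 8.49% and within 50 kb at 77.9%. The differences in the run and in ZIC2 listed again were then -0.732 (-4.57 to 3.14) and -0.517 points (-3.90 to 2.55), of the opposite sign and with intervals that include 0. The cause was not tested.

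Windows of 100 bp gave a run at 45.2%, the octamer at 15.3%, CCTGCTG at 10.2% and GGATTA at 1.51%, and windows of 400 bp gave 64.1%, 32.8%, 30.3% and 8.57%. Runs of at least 30 bp were at 37.1% and an octamer with 1 mismatch at 84.3%. Without SOX2 or POU3F1 peaks within 500 bp, either was listed in EpiSCA at 7.99%. A TSS within 1 kb was at 12.5% for peaks under 2000 bp, 11.3% for starts of protein-coding transcripts, 16.9% from the edge of the ZIC2 peak, and a protein-coding start within 50 kb at 68.9%. Leaving out chromosome X moved no value out of its interval.

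No paired analysis was possible because each factor had 1 library per culture and the results come from no test across samples. No replicate was left out, since there is 1 per group. Peaks were listed from a score of 50 only. The number of sites limits the precision, most of all for the 427 sites with OTX2, and depth was not compared between the lists.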
